A study of Mus musculus with 8 samples.

Results

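The liver transcriptome of Cyp7a1 transgenic mice was compared with that of wild-type mice over both treatments of the study at once. All 8 libraries entered the comparison, 4 from ApoE-Cyp7a1 transgenic mice and 4 from wild-type mice, and within each genotype 2 came from untreated mice and 2 from mice injected every day for 7 days with 1.5 mg/kg of LPS, the endotoxin of Gram-negative bacteria. All mice were male and of the C57Bl/6J strain, the tissue was whole liver, and the samples of a group were separate biological replicates per the design text. The age of the mice, any vehicle injection of the untreated mice, and the species of the transgene were not given in the sources used here. Its construct is described as liver specific, and its name joins Apoe, a gene strongly expressed in hepatocytes, to Cyp7a1. The question was which genes differed between the genotypes once the treatment was accounted for. Of 17294 features with a value above 0, 11463 entered the test because 2 or more libraries held 1 FPKM or more of them, where FPKM is a fragment density scaled to transcript length and library size.

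Cyp7a1 hydroxylates cholesterol in the first and rate-limiting step of the classical pathway from cholesterol to bile acids. Liver replaces the cholesterol it uses by uptake of lipoproteins and by synthesis through the mevalonate and sterol pathway. When sterol in the endoplasmic reticulum is low, Scap escorts the transcription factor Srebf2 to the Golgi for cleavage, and the freed factor switches on the synthesis genes together with Insig1. Bile acids in turn are known to repress Cyp7a1 and Cyp8b1 through the nuclear receptors Nr1h4 (FXR) and Nr0b2 (SHP).

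Differences are given as transgenic minus wild type on the scale of log2(FPKM + 1), from a limma fit with a term for genotype and one for treatment, and folds are on the same scale, which understates the change of genes with low values. A feature is said to pass where its p, adjusted by the Benjamini-Hochberg method over all 11463, was under 0.05. The FPKM of a library summed to 500765 to 580051 in untreated and to 406668 to 469644 in LPS-treated mice, and the depth in fragments is unknown. Of 17 listed hepatocyte markers 14 had a value above 0 in the table, and Alb, which is listed at 0, was not among them. Those 14 summed to 29047 to 40064 FPKM in wild-type and 25680 to 30532 FPKM in transgenic liver, with 0 of them at 0 in any library. Genes of the exocrine pancreas were uneven, with a summed level of 6465 and 1348 FPKM in untreated transgenic liver, 1714 and 102 FPKM in untreated wild-type liver and 25.9 to 246 FPKM in the LPS libraries. In whole tissue, fewer cells of a type and less RNA per cell cannot be told apart.

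One library stood apart from the others of its genotype in stress and sterol genes. Replicates of untreated wild type differed about as widely (SD of their log2 difference 0.484) as those of LPS-treated transgenic mice (0.467). That SD was 0.314 in untreated transgenic and 0.233 in LPS-treated wild-type mice. Replicate 1 of the LPS-treated transgenic mice held 3961 FPKM of Igfbp1, a fasting and stress gene for a binding protein of insulin-like growth factors, against 90.6 to 393 FPKM in the other 7 libraries. Ddit4, a stress-induced inhibitor of mTOR signalling, stood at 295 FPKM there and at 4.52 to 89.3 FPKM in the others. The same library had the lowest transgenic value of most sterol genes, while its Cyp7a1 value, 73.5 FPKM, lay within the range of the other transgenic libraries. Calls that change without it are given both ways for the genes described with values below, a choice made after its values were seen, and the part of stress genes in the results was not tested.

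The Cyp7a1 row was higher in every transgenic library. It was measured at 24.9 and 49.1 FPKM in untreated and 19.9 and 27.9 FPKM in LPS-treated wild-type liver, and at 64.7 and 78.5 FPKM in untreated and 73.5 and 70.2 FPKM in LPS-treated transgenic liver. The genotypes did not overlap, and the means were 71.7 ± 5.80 FPKM in transgenic and 30.5 ± 12.9 FPKM in wild-type liver (SD, n = 4). The difference of 1.29 (SE 0.23, 95% interval 0.76 to 1.81, 2.44-fold) had a limma adjusted p = 0.201 and did not pass over all features. A 2-sided exact permutation test of genotype within treatment gave p = 0.0556, the smallest that its 36 arrangements allow. With each library left out in turn the difference was 1.14 to 1.53. It was largest without replicate 2 of untreated wild type, where removal of the wild-type value nearest the transgenic ones enlarges it, so that value lends no support. The mouse gene lies on chromosome 4 (6265612 to 6275633, mm10). The sources used here do not say whether transgene reads fall in its row, which may therefore hold more than the mouse transcript.

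Apoe, whose name the transgene carries, lay at 6960 to 12377 FPKM in transgenic and at 8215 to 17080 FPKM in wild-type liver. The genotypes overlapped, and the difference of -0.39 (SE 0.26, 95% interval -0.98 to 0.19) did not pass (limma adjusted p = 0.950). Its sign depended on the scaling, with 0.02 after quantile normalization.

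Over the whole table few features passed, and those higher in transgenic liver belonged to sterol synthesis. In limma 7 of 11463 features passed (0.0611%), 3 higher (0.0262%) and 4 lower (0.0349%) in transgenic liver. The 3 that rose were Fdps, Lss and Hsd17b7, and the 4 that fell were Snhg9, Gsta2, Dct and Pparg. At an unadjusted p under 0.05 there were 595 (5.19%), 252 higher (2.2%) and 343 lower (2.99%), near the share that this threshold gives by chance. In 200 features (1.74%) all 4 libraries of one genotype lay apart from all 4 of the other, 95 higher (0.829%) and 105 lower (0.916%) in transgenic liver. Of the 7 that passed, 6 were among these 200, and Snhg9 was not. Lack of overlap is a description without a test, and some features separate in this way by chance. The median difference over all features tested was -0.01.

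The number that passed rested on single libraries. Without replicate 1 of LPS-treated transgenic mice 40 features passed (0.349%), 35 higher (0.305%) and 5 lower (0.0436%), and all 7 of the calls made with 8 libraries were among them. Without it 364 features did not overlap (3.18%), 219 higher (1.91%) and 145 lower (1.26%), and separation is easier to reach with 7 libraries than with 8. Of the 35 higher features 20 were in the lists of cholesterol synthesis or of its control by Srebf2. Without replicate 2 of that group 2 passed. Without replicate 1 or 2 of untreated transgenic mice 1 passed in each case. Without replicate 1 or 2 of untreated wild type 1 and 3 did. Leaving out that replicate 2 of untreated wild type put 1763 features at an unadjusted p under 0.05, against 595 with 8 libraries. Of the 1763, 591 were higher and 1172 lower, so this library also weighed on the result. Leaving out replicate 1 or replicate 2 of LPS-treated wild type left 0 in limma, with 366 and 343 at an unadjusted p under 0.05.

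Among the non-overlapping features the sterol genes stood out by size. Of the 21 that were at least 2-fold higher, 14 were in the lists of cholesterol synthesis or of its control by Srebf2. The other 7 of the 21 were Cyp7a1, Acsl3/Utp14b, Rdh11, Fam198a, Tmco6, Fst and Mup13, of which Fst and Mup13 are named after their values were seen. Fam198a held at most 0.526 FPKM in wild type and entered the test only through its transgenic values. A further 17 were at least 2-fold lower, and 1 of those was the bile acid gene Cyp8b1.

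**Figure D1:**
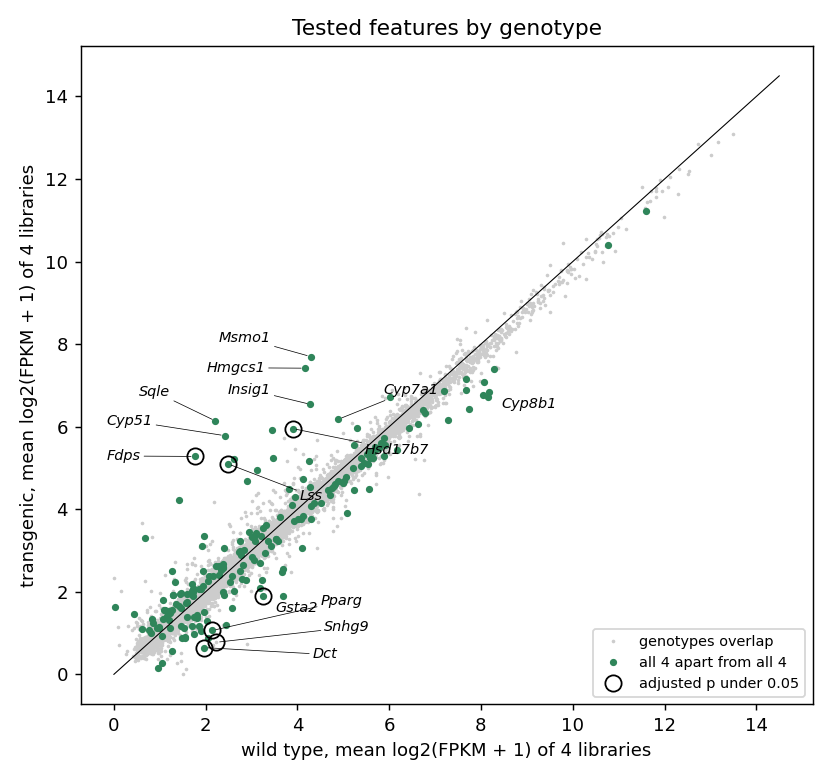
Mean log2(FPKM + 1) of the 4 wild-type libraries (x axis) against that of the 4 transgenic libraries (y axis) for the 11463 tested features, with the line of equal values. Green points are the 200 features whose genotypes did not overlap and circles mark the 7 that passed; sterol genes such as Sqle, Fdps and Msmo1 lie farthest above the line.

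Cholesterol synthesis genes were higher in transgenic liver along most of the pathway. Of 19 tested members 3 rose and 16 did not pass, 14 were higher at an unadjusted p under 0.05, and 11 had no overlap between the genotypes. Over all features 0.0262% rose, 2.2% were higher at an unadjusted p under 0.05 in limma and 0.829% were higher without overlap. The difference was above 0 in all 19, from 0.06 to 3.93, with a median of 2.06 (4.16-fold) beside -0.01 over all features tested. The median was 2.80 in untreated and 1.85 in LPS-treated mice. Without replicate 1 of LPS-treated transgenic mice 16 of the 19 passed, with a median of 2.69. Within each treatment both transgenic libraries lay above both wild-type libraries in 12 of the 19. Over all features 6.37% lay apart in 1 direction in both treatments, with 2.67% higher in transgenic liver.

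In the median over these 19 genes the wild-type libraries lay close to one another. Relative to the wild-type mean of each gene, the median ratio over the 19 genes was 0.874 to 1.02 in the 4 wild-type libraries. It was 7.602 and 6.28 in untreated transgenic liver, 6.45 in replicate 2 of the LPS-treated transgenic mice and 1.92 in replicate 1. In that replicate 11 of the 19 genes exceeded every wild-type library, and in each of the other transgenic libraries 17 did. The summed level of the 19 genes was 436 to 492 FPKM in wild type, 2195, 1940 and 1889 FPKM in those 3 transgenic libraries, and 474 FPKM in replicate 1 of the LPS-treated transgenic mice, within the wild-type range.

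**Figure D2:**
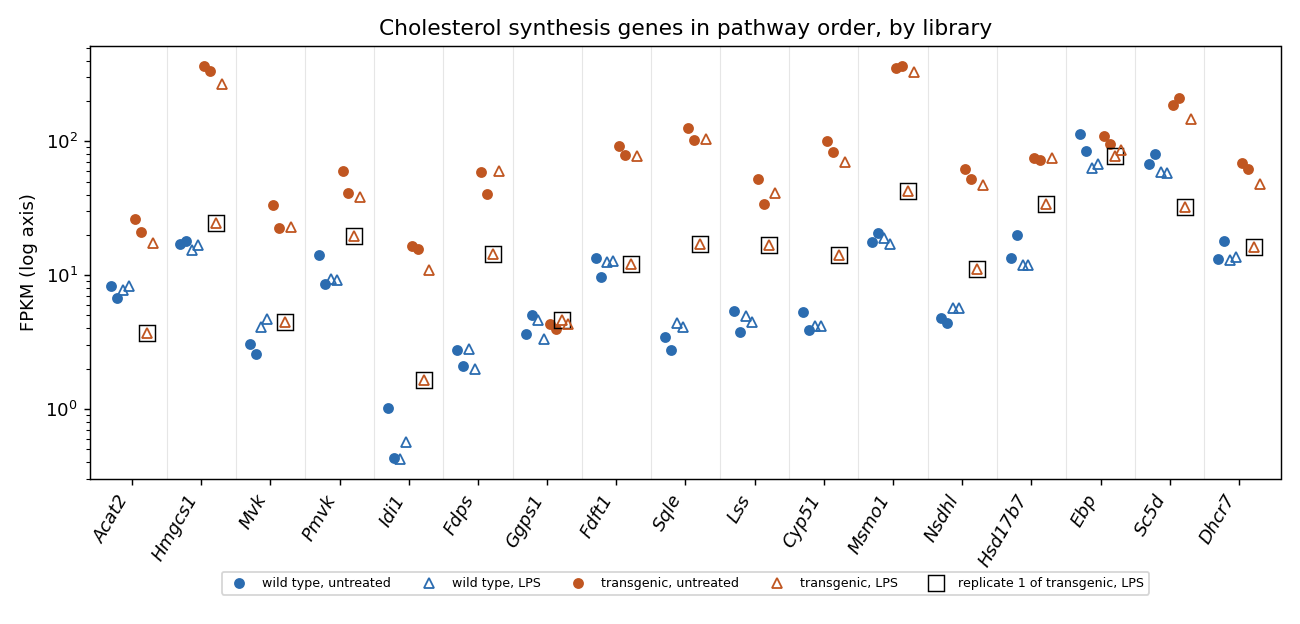
FPKM on a log axis of 17 of the 19 tested cholesterol synthesis genes in pathway order, 1 point per library, blue for wild type and orange for transgenic, filled circles untreated and open triangles LPS. Squares mark replicate 1 of LPS-treated transgenic mice, which lies between the genotypes or within wild type in most genes; in Ebp and Ggps1 the genotypes overlap.

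Fdps, which joins isoprene units into farnesyl diphosphate, rose most among the genes that passed. It held 2.75, 2.104, 2.80 and 1.98 FPKM in the wild-type libraries (untreated 1 and 2, then LPS 1 and 2) and 58.5, 40.02, 14.3 and 60.02 FPKM in the transgenic ones in the same order. Every transgenic value was above every wild-type value, and the difference was 3.52 (SE 0.39, 11.5-fold, limma adjusted p = 0.0430). Lss, the cyclase that closes the sterol ring system, held 5.39, 3.74, 4.93 and 4.45 FPKM in wild type against 51.9, 33.8, 16.8 and 41.2 FPKM in transgenic liver, a rise of 2.62 (SE 0.29, limma adjusted p = 0.0430). Hsd17b7, which reduces a keto group during removal of the sterol methyl groups, held 13.4, 19.9, 11.8 and 11.8 FPKM against 75.0, 72.5, 33.9 and 74.6 FPKM, a rise of 2.06 (SE 0.23, limma adjusted p = 0.0430). In all 3 genes the lowest transgenic library was replicate 1 with LPS, and it still lay above wild type. Leaving out any single library other than that one ended all 3 calls. The limma adjusted p was at most 0.227, without replicate 2 of untreated transgenic mice, where the differences were 3.56, 2.67 and 2.05.

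The early, mevalonate part of the pathway had large differences that did not pass with 8 libraries. Hmgcs1, which makes HMG-CoA, held 17.2, 18.1, 15.5 and 16.9 FPKM in wild type against 368, 336, 24.6 and 268 FPKM in transgenic liver. Its difference was 3.26 (SE 0.69, limma adjusted p = 0.336), and without replicate 1 of the LPS-treated transgenic mice it was 4.13 (SE 0.11, adjusted p = 4.77e-06). Its genotypes did not overlap. The kinases Mvk and Pmvk and the isomerase Idi1 differed by 2.00, 1.78 and 2.62 with 8 libraries, where none of the 3 passed, and by 2.61, 2.02 and 3.20 without replicate 1 of the LPS-treated transgenic mice, where all 3 did. Mvk overlapped between genotypes through that library alone, which held 4.46 FPKM against 4.70 FPKM in the highest wild-type library. Idi1 held 0.420 to 1.01 FPKM in wild type and met the filter through its transgenic values.

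From squalene onward the pattern was the same. Sqle, the squalene epoxidase and a rate-controlling enzyme of the pathway, had the largest difference of any gene tested in these lists, with 3.47, 2.78, 4.37 and 4.07 FPKM in wild type against 126, 102, 17.2 and 103 FPKM in transgenic liver. That difference of 3.93 (SE 0.54, 95% interval 2.69 to 5.17, 15.2-fold) had a limma adjusted p = 0.0878 with 8 libraries and 1.50e-05 without replicate 1 of the LPS-treated transgenic mice, at 4.61. Cyp51, the lanosterol demethylase, differed by 3.37 (limma adjusted p = 0.0878), and Msmo1, the methyl sterol oxidase, by 3.41 (adjusted p = 0.163). Msmo1 reached 355, 363, 42.7 and 328 FPKM in transgenic liver against 17.2 to 20.6 FPKM in wild type, so that even the low transgenic library was above wild type. Nsdhl, which removes a carboxyl group from the same intermediates, differed by 2.62 (adjusted p = 0.163), and without that replicate all 3 passed, at 3.95, 4.14 and 3.16.

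Fdft1, which makes squalene, and the late reductase Dhcr7 overlapped or nearly so through the same library. Fdft1 held 12.2 FPKM there and 77.9 to 91.9 FPKM in the other transgenic libraries, against 9.72 to 13.4 FPKM in wild type. Dhcr7 held 16.1 FPKM there, 47.6 to 68.3 FPKM in the other transgenic libraries and 12.9 to 18.1 FPKM in wild type. Without it Fdft1, Dhcr7, Sc5d and Acat2 passed, at 2.69, 1.91, 1.37 and 1.33, and Sc5d and Acat2 had values in it (32.0 and 3.72 FPKM) below every wild-type library.

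Some members of the pathway had small differences. Ggps1, which leads from farnesyl diphosphate to protein prenylation instead of sterols, differed by 0.06 (95% interval -0.24 to 0.35), with 3.97 to 4.62 FPKM in transgenic and 3.32 to 5.03 FPKM in wild-type liver. Ebp, a sterol isomerase, differed by 0.19 (95% interval -0.11 to 0.49). Both genes overlapped between genotypes and did not pass with or without replicate 1 of the LPS-treated transgenic mice.

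Because most of these genes are classical targets of Srebf2 with the cofactor NF-Y, their promoters were read for the letters of its binding element. Of the 19 tested genes 14 had an entry in the RefSeq promoter table (GRCm38.p6, the assembly of mm10), and the 250 bases before the start were searched on both strands for TCACNCCAC, a form of the sterol regulatory element, and for CCAAT, the NF-Y box. TCACNCCAC was in 1 of the 14 genes, Hmgcs1, and in 1.22% of all 27025 genes with an entry (1.05% of 32851 promoters). CCAAT was in 13 of the 14, all but Acat2, and in 37.49% of all genes with an entry (33.85% of promoters). Shown are 3 genes with large differences and, for contrast, Ggps1, whose values differed little; capitals mark CCAAT or its reverse complement ATTGG and, in Hmgcs1, the sterol element, and no marked motif overlaps another. The windows are chr13:119690101-119690350 (plus strand) for Hmgcs1, chr8:64733579-64733828 (minus strand) for Msmo1, chrX:72918271-72918520 (plus strand) for Nsdhl and chr13:14063489-14063738 (minus strand) for Ggps1.
Hmgcs1: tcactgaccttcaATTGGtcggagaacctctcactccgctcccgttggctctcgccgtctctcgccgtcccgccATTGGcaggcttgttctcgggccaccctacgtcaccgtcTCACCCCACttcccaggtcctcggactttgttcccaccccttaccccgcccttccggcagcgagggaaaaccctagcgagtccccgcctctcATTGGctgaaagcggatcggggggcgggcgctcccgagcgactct
Msmo1: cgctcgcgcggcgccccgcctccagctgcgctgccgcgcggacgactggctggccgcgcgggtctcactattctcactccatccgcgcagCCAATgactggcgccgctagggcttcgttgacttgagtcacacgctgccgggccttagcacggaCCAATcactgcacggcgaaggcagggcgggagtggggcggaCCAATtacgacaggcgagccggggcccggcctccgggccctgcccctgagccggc
Nsdhl: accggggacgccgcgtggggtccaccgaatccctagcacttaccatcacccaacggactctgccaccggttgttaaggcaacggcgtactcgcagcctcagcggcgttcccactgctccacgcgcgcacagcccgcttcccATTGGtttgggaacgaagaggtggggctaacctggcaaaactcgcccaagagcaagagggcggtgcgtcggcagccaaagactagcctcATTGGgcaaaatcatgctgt
Ggps1: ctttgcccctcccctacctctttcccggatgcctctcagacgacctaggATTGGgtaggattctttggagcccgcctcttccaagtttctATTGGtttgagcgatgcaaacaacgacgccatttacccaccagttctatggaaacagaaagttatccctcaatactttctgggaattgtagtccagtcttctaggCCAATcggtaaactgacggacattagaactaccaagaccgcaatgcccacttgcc
The Hmgcs1 window holds 3 CCAAT boxes and a sterol element that begins 137 bases before the start. Msmo1 holds 3 CCAAT boxes, Nsdhl 2 and Ggps1 3, so that the box was present both in genes with a large difference and in one with almost none. A match of letters is not evidence of binding, and a window without a match says only that these letters are absent from it.

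The genes that control the pathway, and uptake of lipoprotein cholesterol, were higher in part. Of 9 tested members of that list 0 passed in limma, 5 were higher at an unadjusted p under 0.05, and 3 did not overlap, Insig1 and Stard4 among them. The median difference was 1.00, and without replicate 1 of the LPS-treated transgenic mice it was 1.28 and 4 of the 9 passed. Insig1, which retains Scap in the endoplasmic reticulum, held 23.8, 14.8, 18.4 and 17.9 FPKM in wild type against 154, 129, 28.4 and 126 FPKM in transgenic liver. That difference of 2.26 (SE 0.44, limma adjusted p = 0.244) was 2.80 and passed without that replicate. Stard4, a sterol carrier, differed by 1.85 (limma adjusted p = 0.352), and by 2.34 without that replicate, where it passed (adjusted p = 0.000441).

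The difference of Srebf2 itself was below the median of the synthesis genes. Srebf2 held 11.5 to 18.2 FPKM in wild type and 40.8, 34.2, 17.6 and 38.9 FPKM in transgenic liver, where replicate 1 with LPS fell inside the wild-type range. Its difference of 1.00 (SE 0.26, limma adjusted p = 0.643) became 1.28 and passed without that library (adjusted p = 0.0249). Scap, whose product escorts Srebf2, differed by -0.04 (95% interval -0.31 to 0.24), a sign that turned under quantile normalization (0.03). Insig2, Lrp1 and Mylip overlapped between genotypes, with differences of 0.63, -0.21 and -0.18. Without replicate 1 of the LPS-treated transgenic mice Scap, Insig2 and Lrp1 differed by -0.13, 0.36 and -0.02, and none of the 3 passed.

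Among lipogenesis genes the one that passed was lower. Of 23 tested lipogenesis genes 0 rose and 1, Pparg, fell, with 5 higher at an unadjusted p under 0.05 and a median of 0.22. Fasn, the fatty acid synthase, held 51.6, 50.2, 11.6 and 48.0 FPKM in transgenic liver against 10.6 to 13.9 FPKM in wild type, so that the genotypes overlapped through replicate 1 with LPS. Without that library 3 genes of the list passed as higher, Fasn at 1.89, Acly, which supplies cytosolic acetyl-CoA, at 0.92 and the elongase Elovl6 at 1.01 (limma adjusted p = 0.000404, 0.0172 and 0.0127). These 3 genes were named after their values were seen. Pparg, the lipid storage factor of adipose tissue, held 3.66, 3.29, 3.86 and 2.94 FPKM in wild type against 1.31, 0.953, 0.765 and 1.39 FPKM in transgenic liver. It fell by 1.08 (SE 0.13, limma adjusted p = 0.0430), with no overlap, and its difference was -1.07 in untreated and -1.09 in LPS-treated mice. The 6 tested adipose tissue markers had a median difference of 0.05, made of -0.73 in untreated and 0.82 in LPS-treated mice, and 0 of them passed in limma (1 higher at an unadjusted p under 0.05). Their summed level was 62.2 to 129 FPKM in wild type, 68.9 and 51.5 FPKM in untreated transgenic liver and 158 and 170 FPKM in LPS-treated transgenic liver, and their part in the Pparg values was not tested.

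Bile acid synthesis genes other than Cyp7a1 mostly had differences below 0 that did not pass, and that of Cyp8b1 was the largest. Of 15 tested synthesis genes 0 passed in limma and 2 were lower at an unadjusted p under 0.05. The median difference was -0.28, with 3 of the 15 above 0. Cyp8b1, the hydroxylase that sets the share of cholic acid, held 343, 505, 221 and 179 FPKM in wild type against 116, 162, 86.1 and 102 FPKM in transgenic liver. All 4 transgenic values were below all 4 wild-type values, and the difference was -1.34 (SE 0.19, 95% interval -1.78 to -0.89), which did not pass (limma adjusted p = 0.0895). Without replicate 1 of LPS-treated transgenic mice it was also -1.34 (adjusted p = 0.0818). Cyp27a1 and Cyp7b1, enzymes of the alternative pathway, differed by -0.29 (95% interval -0.63 to 0.05) and 0.35 (95% interval -0.71 to 1.41), and both overlapped. Without that library Cyp7b1 differed by 0.60 and did not pass.

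Transport and feedback genes did not pass either. In the transport list 0 of 10 passed in limma (1 lower at an unadjusted p under 0.05), with a median of -0.11 and 1 of the 10 above 0. Abcb11, the export pump for bile salts, differed by -0.07 (95% interval -0.32 to 0.19). In the sensing and feedback list 0 of 10 passed and 0 reached an unadjusted p under 0.05, with a median of -0.12. Nr1h4 differed by -0.18 (95% interval -0.58 to 0.22), and by -0.00495 without replicate 1 of the LPS-treated transgenic mice. Nr0b2, its target, lay at 23.3 to 25.3 FPKM in wild type and at 29.0, 27.9, 5.33 and 23.6 FPKM in transgenic liver, and its difference of -0.40 became 0.12 without replicate 1 of the LPS-treated transgenic mice. Of 13 sterol efflux and LXR target genes 0 passed and 0 reached an unadjusted p under 0.05, with a median of -0.01 and a range of -0.18 to 0.17.

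**Figure D3:**
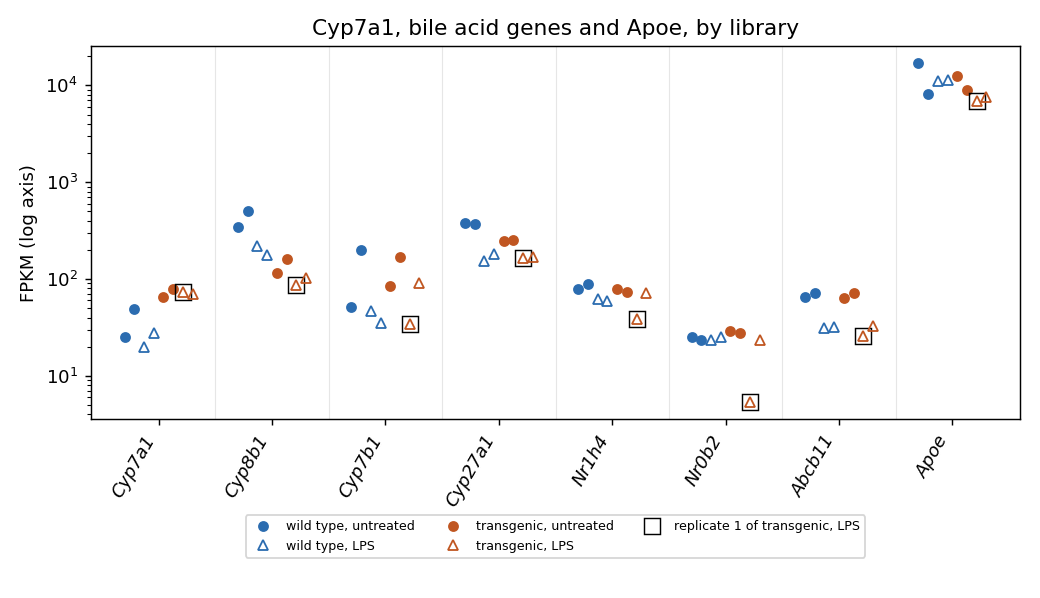
FPKM on a log axis of Cyp7a1, 3 further bile acid synthesis genes, the receptors Nr1h4 and Nr0b2, the pump Abcb11 and Apoe, 1 point per library, coloured by genotype and shaped by treatment. Cyp7a1 is higher and Cyp8b1 lower in all 4 transgenic libraries, and the others overlap.

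Of the genes that fell, 3 code for proteins of unrelated known roles and 1 is a noncoding RNA. Gsta2, a glutathione transferase of detoxification, held 14.2, 11.9, 5.67 and 5.27 FPKM in wild type against 3.70, 4.79, 1.14 and 2.39 FPKM in transgenic liver and fell by 1.34 (SE 0.16, limma adjusted p = 0.0430). Within each treatment the transgenic pair was below the wild-type pair, and LPS values were lower than untreated ones in both genotypes. Dct, a melanin synthesis enzyme, held 2.36, 3.86, 2.45 and 3.23 FPKM against 1.01, 0.505, 0.475 and 0.347 FPKM. It fell by 1.33 (SE 0.16, limma adjusted p = 0.0430), at levels near the filter, which it met only through its wild-type values. Snhg9, a small nucleolar RNA host gene, held 1.92 and 1.31 FPKM in untreated and 7.48 and 7.42 FPKM in LPS-treated wild-type liver, was listed at 0 in both untreated transgenic libraries, and held 1.86 and 2.00 FPKM in LPS-treated ones. The genotypes overlapped over all 8 values but not within a treatment, and it fell by 1.45 (SE 0.10, limma adjusted p = 0.00488). Snhg9 (chromosome 17, 24719531 to 24719965) is annotated as antisense, and whether counting used strand was not given in the sources used here, so its reads and those of the opposite strand may not be separated.

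The calls of Gsta2, Dct and Pparg rested on most of the libraries and that of Snhg9 on fewer. Dct and Pparg did not pass without any single library other than replicate 1 of the LPS-treated transgenic mice, and Gsta2 passed only without replicate 1 or 2 of that group. Their limma adjusted p was highest without replicate 2 of untreated transgenic mice (0.227 for Gsta2, 0.272 for Dct and 0.277 for Pparg), where the differences were -1.39, -1.27 and -1.04. Snhg9 did not pass without replicate 1 or 2 of LPS-treated wild type (limma adjusted p = 0.0515 and 0.0557), and the differences were -1.43 and -1.44. All 4 kept their call without replicate 1 of the LPS-treated transgenic mice.

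Further non-overlapping genes with lower transgenic values were chosen for their small unadjusted p, and none of them passed. Enho, which encodes the liver peptide adropin, held 11.5, 7.42, 14.01 and 15.8 FPKM in wild type against 4.76, 4.43, 5.47 and 4.90 FPKM in transgenic liver, a difference of -1.12 (SE 0.16, limma adjusted p = 0.0878). Adora1, an adenosine receptor, differed by -0.93 and Lars2, the mitochondrial leucyl-tRNA synthetase, by -1.08 (limma adjusted p = 0.132 for both). Sardh, the sarcosine dehydrogenase of mitochondria, differed by -0.78, and Enpp2, which encodes the secreted phospholipase autotaxin, by -0.77. Fitm1, a lipid droplet protein, had the largest such difference, -1.78 (SE 0.35, adjusted p = 0.244), and it was lowest in replicate 1 of the LPS-treated transgenic mice at 0.298 FPKM, without which the difference was -1.40. Susd4, a complement regulator, behaved alike, at -1.17 with and -0.93 without that library. Atp6v0d2, Adam11 and Chac1 also did not overlap, at differences of -0.79, -0.62 and -0.84. Atp6v0d2 held at most 0.318 FPKM in transgenic liver and entered the test only through its wild-type values. Adam11, at 0.654 to 1.05 FPKM in transgenic liver, also met the filter only through its wild-type values.

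**Figure D4:**
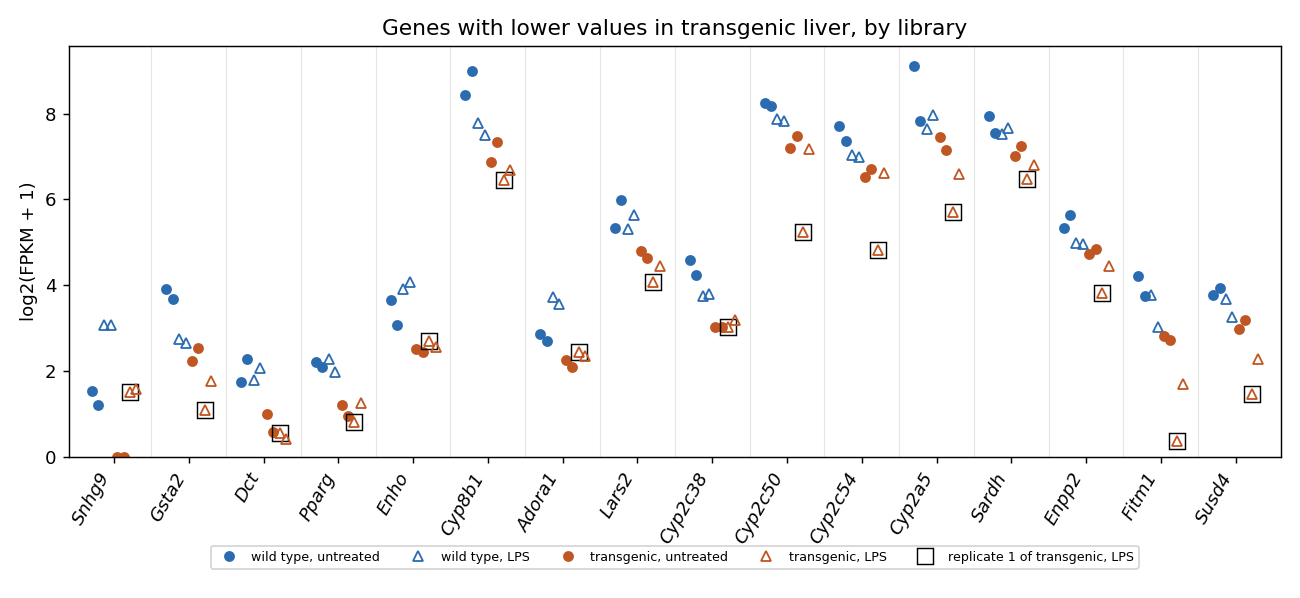
Values of log2(FPKM + 1) of 16 genes with lower values in transgenic liver, 1 point per library, coloured by genotype and shaped by treatment. Snhg9, Gsta2, Dct and Pparg passed; in 15 of the 16, all but Snhg9, every orange point lies below every blue point.

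Drug-metabolizing cytochrome P450 genes mostly had lower values in transgenic liver, but none passed. Of 14 tested 0 passed in limma, 6 were lower at an unadjusted p under 0.05, 4 did not overlap and were lower, and 2 had a difference above 0. Over all features 2.99% were lower at an unadjusted p under 0.05 in limma and 0.916% were lower without overlap. The median of the 14 was -0.61. It was -0.19 with no filter on low values, -0.39 with a filter of 5 FPKM and -0.41 with a pseudocount of 5. When untreated wild-type replicate 1 was left out it was -0.34. Cyp2c38 held 23.2, 17.9, 12.6 and 12.8 FPKM in wild type against 7.12, 7.18, 7.14 and 8.17 FPKM in transgenic liver, a difference of -1.03 (SE 0.16, limma adjusted p = 0.132). Cyp2a5, which oxidizes coumarin and nicotine, differed by -1.42, Cyp2c50 by -1.26 and Cyp2c54 by -1.11. In Cyp2c50 and Cyp2c54 replicate 1 of the LPS-treated transgenic mice was far below the rest, at 36.9 and 27.1 FPKM, and without it the differences were -0.80 and -0.71, of which Cyp2c50 passed (limma adjusted p = 0.0407). These are near-identical paralogs whose reads may be split between them, so the value of each single gene is uncertain. The 14 hepatocyte markers had a median of -0.28, 0 of them passed and 1 was lower at an unadjusted p under 0.05, and their part in the P450 values was not tested.

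The conjugation, lipoprotein, respiratory chain and fatty acid oxidation lists had medians from -0.26 to -0.13. Medians of other metabolic lists were -0.15 for amino acid and urea cycle genes and -0.11 for iron and heme genes. They were -0.08 for glucose metabolism and fasting genes and -0.08 for thyroid hormone genes. Of 20 conjugation and NRF2 target genes 1, Gsta2, fell and 0 rose, with a median of -0.18. Of 14 lipoprotein genes 0 passed and 2 were lower at an unadjusted p under 0.05. Apoc3, a protein of triglyceride-rich particles, did not overlap, at a difference of -0.36, and without replicate 1 of the LPS-treated transgenic mice this was -0.24. All 24 respiratory chain genes had a difference below 0, from -0.27 to -0.06, and 0 passed, with 1 at an unadjusted p under 0.05. Fatty acid oxidation genes (28 tested, 0 passed, 2 lower at an unadjusted p under 0.05) had a median of -0.13.

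In the inflammatory and cell type lists no member passed. Medians were 0.05 for 20 macrophage and Kupffer cell genes, -0.01 for 27 stellate cell and matrix genes, 0.02 for 14 endothelial genes, -0.04 for 26 acute phase genes (-0.26 in untreated and 0.25 in LPS-treated mice) and -0.29 for 10 neutrophil genes, 1 of them above 0. Of these lists 0 members passed in limma. At an unadjusted p under 0.05 there were 1 higher macrophage gene and 2 lower acute phase genes among them. The 23 cytokine and NF-kB target genes had a median of 0.04 and the 19 interferon-stimulated genes one of 0.05 (0.20 in untreated and -0.18 in LPS-treated mice), with 0 passed in limma and 1 and 3 higher at an unadjusted p under 0.05. One member of each did not overlap, Cxcl10 and Rsad2, both interferon-induced. Their transgenic values were higher by 0.92 and 0.65, and neither passed (limma adjusted p = 0.643 and 0.352). The highest Cxcl10 value, 7.10 FPKM, was again in replicate 1 of the LPS-treated transgenic mice. The 16 pancreas genes had a median of 0.84, made of 2.76 in untreated and -1.05 in LPS-treated mice, and 0 passed in limma or reached an unadjusted p under 0.05. All 16 had a difference above 0, and the part of pancreas RNA in other values was not tested.

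**Figure D5:**
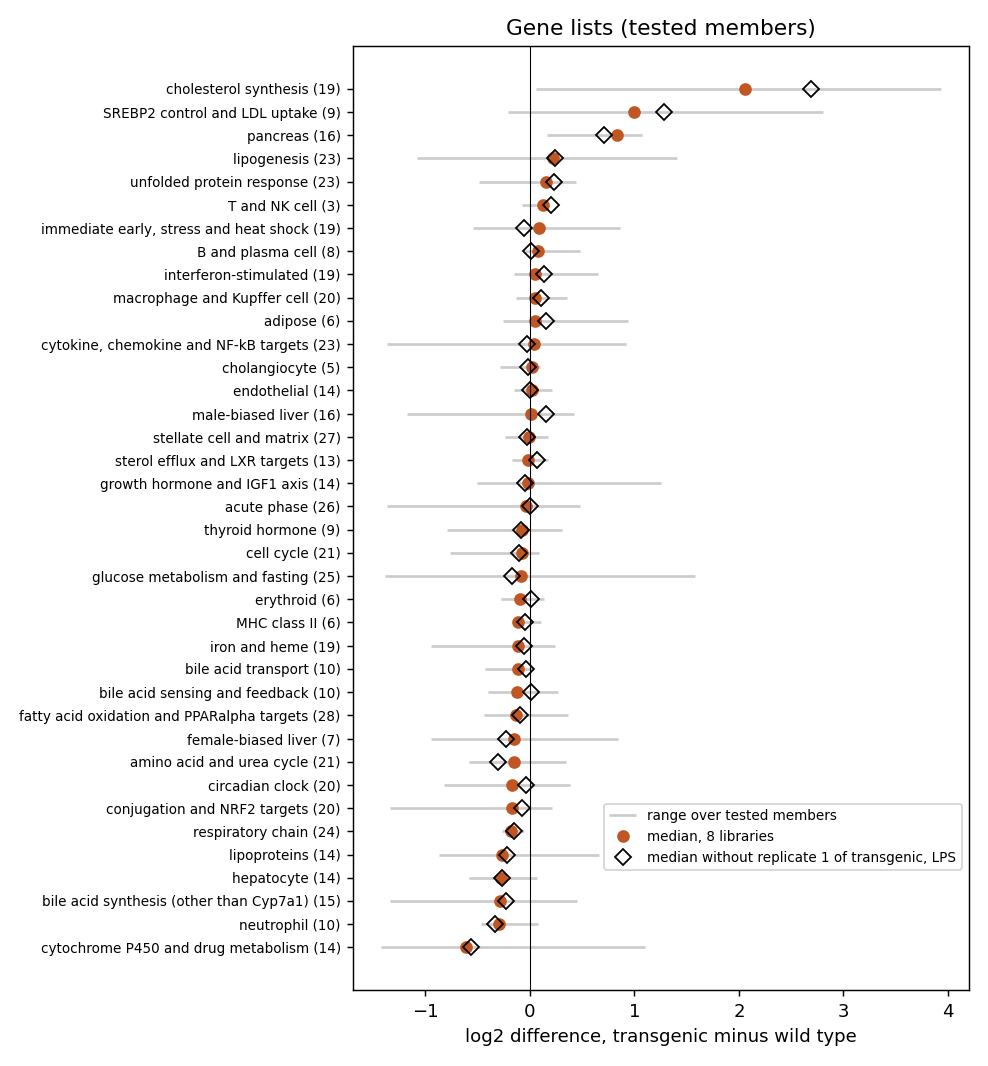
Median log2 difference, transgenic minus wild type, of each gene list over its tested members (number in parentheses), with the range over members as grey lines and the median without replicate 1 of LPS-treated transgenic mice as diamonds. The cholesterol synthesis list lies at 2.06, the Srebf2 control list at 1.00, and most others lie near 0.

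The genotype difference could also depend on treatment, which was tested as an interaction. In limma 1 of 11463 features passed (0.00872%), the major urinary protein gene Mup12, named after its values were seen, which reached 38.2 and 89.9 FPKM in untreated transgenic liver and at most 2.76 FPKM in every other library. Of the sterol genes none passed that test. The difference of Fdps was 3.86 in untreated and 3.18 in LPS-treated mice (interaction -0.67, SE 0.79, limma adjusted p = 0.792), and that of Hmgcs1 was 4.24 and 2.27 (interaction -1.97, SE 1.25, adjusted p = 0.602). Cyp7a1 differed by 1.00 and 1.57 (interaction 0.56, SE 0.44, adjusted p = 0.668). With 2 libraries per group and 1 of the LPS-treated transgenic pair standing apart, the standard errors of these interactions are wide.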

How the data were processed

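RNA from frozen, pulverized mouse liver was sequenced after stranded mRNA library preparation, per the labels' protocols. The deposited table gives FPKM computed by the authors. The submitters' processing notes name the build mm10, the aligners Bowtie2 (2.2.6) and TopHat2 (2.1.0), and Cufflinks with Cuffdiff (2.2.1). The annotation, strand setting and filters were not given in the sources used here. No fragment counts were used, so no count model, counting interval or depth is given.

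The table has 24545 rows, 6197 of them 0 in all libraries. Names with identical values (549 sets) were joined, and 27 names turned into dates were kept unnamed. Alb is listed at 0 and was not read as absent.

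Values were analysed as log2(FPKM + 1) with limma (3.58.1, in R 4.3.3), taking genotype and treatment as additive terms, 5 residual degrees of freedom and moderation along the mean-variance trend. Tests were 2-sided with Benjamini-Hochberg adjustment. The fit was tested on simulated data. Alternatives were other pseudocounts, filters, scalings, moderation settings, model terms, a replicate block and leaving out each library.

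The comparison and the 38 gene lists were chosen with earlier results of these data known. Genes to name were Cyp7a1 and Apoe, up to 15 non-overlapping features a direction (those that passed by size, then by p) and up to 4 members per list. After values were seen 29 were added, namely the further members of both sterol lists and single genes, beside Fst, Mup12 and Mup13. Unnamed gene models, immunoglobulin segments, small RNAs and genes for major urinary proteins enter the counts only, and values of some further genes are not reported here. Positions are from GENCODE vM21 (GRCm38, the assembly of mm10), found for 73 of 74 features.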

Additional observations from a re-analysis of the deposited data

Results flagged for a closer look

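Values that stood far from the other 3 libraries of their genotype came mostly from replicate 1 of LPS-treated transgenic mice. A gap is listed where it exceeded 0.829 of the range of the 4 values on the scale of log2(FPKM + 1). Chance gives that in about 1 in 20 groups whose 4 values come from 1 population. Each group here held both untreated and LPS-treated libraries, and genes share the libraries, so that rate need not hold. In all 148 groups of 4 libraries were screened, and the levels are printed in FPKM, on which the gaps take other shares of the range. Among sterol genes that library was low in Hsd17b7 (33.9 FPKM), Sqle (17.2), Msmo1 (42.7), Nsdhl (11.1), Insig1 (28.4), Stard4 (10.3), Fdft1 (12.2) and Hmgcs1 (24.6). Among fatty acid genes it was low in Fasn (11.6 FPKM), Acly (20.0), Elovl6 (6.01) and Acsl3/Utp14b (4.601), the last a joined pair of names with identical values. It was also low in the nuclear receptors Nr0b2 (5.33 FPKM) and Nr1h4 (39.0), in Apoc3 (1763), and in Cyp2c50 (36.9) and Cyp2c54 (27.1).

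Other libraries stood apart in 3 genes. Replicate 2 of LPS-treated transgenic mice was high in Cyp2c38 (8.17 FPKM against 7.12 to 7.18) and low in Tyms (0.541 FPKM against 1.47 to 1.63), and replicate 1 of untreated wild type was high in Pmvk (14.1 FPKM against 8.55 to 9.33).

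Igfbp1 and Ddit4 had opposite genotype differences in the treatments, lower in transgenic liver without LPS (-1.80 and -1.67) and higher with LPS (3.22 and 2.54). The differences between treatments were 5.02 and 4.21 and did not pass in limma (adjusted p = 0.410 and 0.294).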

How the results depend on the processing

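The number that passed in limma depended on most settings. Against 7 (3 higher and 4 lower), 0 passed with a pseudocount of 0.1 or 5 and with genotype as the only term (603, 594 and 212 at an unadjusted p under 0.05). With no filter 1 passed (0 higher, 1 lower), and with a filter of 5 FPKM 2 were lower. The average over treatments from a model with interaction gave 16 (8 higher and 8 lower). The share of passed features that were higher was 42.9%, and it was 0% with no filter and 60% with a filter of 5 FPKM. Non-overlapping features higher in transgenic liver numbered 153 with no filter and 46 with a filter of 5 FPKM. With each library left out in turn, 0 to 40 passed, 0 to 35 higher and 0 to 5 lower, the share higher was 0% to 87.5%, and 134 to 441 features were non-overlapping and higher and 145 to 415 lower. The difference of Cyp7a1 was then 1.14 to 1.53, with adjusted p from 0.0376 to 0.669.

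Deviations of same-numbered replicates correlated at 0.0434 to 0.459, over 0.1 in 4 of 6 pairs of groups. The labels name no shared litter, batch or day, and not every pair exceeded 0.1, so the numbers were not used to pair libraries, which does not show that they share nothing. With replicate number as a block 1 feature passed, 0 higher and 1 lower (Snhg9), a share higher of 0%. Fdps, Lss, Hsd17b7, Gsta2, Dct and Pparg then had limma adjusted p from 0.0694 to 0.0964.

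Small differences turned in sign. Under quantile normalization Apoe was 0.0246, Scap 0.0303 and Abcb11 0.00606. With each library left out in turn, the difference ranged over -0.129 to 0.0473 for Scap, -0.123 to 0.0159 for Abcb11, -0.0363 to 0.152 for Ggps1 and -0.668 to 0.116 for Nr0b2. The same ranges were -0.0208 to 0.761 for Cyp7b1, -0.481 to 1.32 for Igfbp1 and -0.327 to 1.09 for Ddit4. The lowest Igfbp1 and Ddit4 values and the highest Nr0b2 and Abcb11 values came without replicate 1 of LPS-treated transgenic mice. The causes were not tested. Depth is unknown, and 2 libraries per group limit the precision.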

Other observations

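Some non-overlapping genes lie close together. Cyp8b1 (chromosome 9, 121914356 to 121916305, mm10), with a difference of -1.34, starts 36.6 kb from the start coordinate of Fam198a, a gene with a difference of 1.00 (limma adjusted p = 0.0636). Fam198a held 0.249 to 0.526 FPKM in wild type, under the filter of 1 FPKM, and entered the test only through its transgenic values. Pomgnt2, next to Fam198a, differed by 0.45. On chromosome 9 the genotypes did not overlap in 17 of 587 tested features (2.90%), 5 higher and 12 lower, against 1.74% of all features tested. That share was the highest of any chromosome and is given for that reason, with 2.77% on chromosome 18 and 2.76% on chromosome 13 next. On chromosome 19 the paralogs Cyp2c38, Cyp2c69, Cyp2c54 and Cyp2c50 lie between 39389556 and 40113950. These 4 were taken from the non-overlapping features, and their transgenic values were lower, by -1.03, -1.17, -1.11 and -1.26. Of them Cyp2c69 held 0.471 to 1.77 FPKM in transgenic liver and met the filter only through its wild-type values. Cyp2c37, which lies in the same interval (39992424 to 40012243), overlapped between genotypes over all libraries, at a difference of -0.84. Within each treatment its transgenic pair was below the wild-type pair. Pomgnt2, Cyp2c69 and Cyp2c37 were named after their values were seen, and a role of position was not tested.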
